A study of Mus musculus with 9 samples.

Results

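This account follows 10 genes of the PARP family, of poly(ADP-ribose) removal and of base excision repair, in the mid brain of mice lacking DJ-1. They are 5 genes of the PARP family (Parp1, Parp2, Parp3, Parp4 and Parp6), Parg, and the base excision repair genes Ogg1, Apex1, Xrcc1 and Lig3. They were taken by symbol, by a rule that holds no measured value but was drawn up with earlier results of these data known, and they are 10 of the 26602 genes with a count in the series. All 10 passed the filter of at least 10 counts over all mice, as did 18127 genes in total. RNA was sequenced from snap-frozen mid brain containing the SNpc, the part of the substantia nigra where dopaminergic neurons lie, with 1 library per mouse. The 4 DJ-1+/+ and 5 DJ-1-/- mice were untreated, 3 to 4 months old, and came from heterozygous crosses after 7 generations of backcrossing to C57BL/6. The DJ-1-/- mice are homozygous for a targeted allele of Park7, the gene for DJ-1, typed by PCR with a primer in Neo, so the allele is present in every cell type and throughout life. Mice of both genotypes shared cages.

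Base excision repair begins when a DNA glycosylase such as OGG1, which removes oxidised guanine, takes out a damaged base. APEX1 then cuts the strand at the empty site, and XRCC1 holds together the enzymes that fill and seal the gap, among them its partner LIG3, a DNA ligase that also serves mitochondria. PARP1 and PARP2 bind the cut strand and use NAD to build chains of ADP-ribose that recruit XRCC1, and PARG takes these chains down again. Neurons do not divide and have a high oxygen use, and this pathway is the one they mainly rely on for oxidised bases.

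Each library gave 841974 to 886085 UMI counts in DJ-1+/+ and 967751 to 1098125 in DJ-1-/- mice, so the deeper libraries are all of one genotype. A UMI is a random tag by which PCR copies are recognised and collapsed. The kit reads only the 3′ end of a polyadenylated transcript, so a count does not grow with transcript length, and levels of different genes are compared here as counts scaled to the library total (cpm, counts per 1000000). The largest count of any gene was 0.107% to 0.142% of its library, and Mbp, a major transcript of myelin, had 4446 counts over all mice against 585 for Parp1. These shares are low for abundant brain transcripts, and whether such genes were counted in full was not tested, so the levels are those of the counts as deposited. Park7 had a log2 fold change of -2.71 (adjusted p = 7.39e-08 in the edgeR fit, after Benjamini-Hochberg adjustment), in the direction of the labels. Summed markers of cerebellar neurons reached 1251 cpm in DJ-1+/+ replicate 1, against 347 to 599 cpm in the other DJ-1+/+ mice and 375 to 583 cpm in the DJ-1-/- mice. Those of the choroid plexus reached 711 cpm in DJ-1+/+ replicate 4 and 329 cpm in DJ-1+/+ replicate 1, against 93.1 and 93.2 cpm in the other DJ-1+/+ mice and 83.7 to 182 cpm in the DJ-1-/- mice. All 8 cerebellar and all 8 choroid plexus markers had a lower estimate in DJ-1-/- mice, 4 and 5 of them with an unadjusted p under 0.05, where 2.83% of all genes tested had one. All 8 dopaminergic markers, Th and Slc6a3 included, had a higher estimate in DJ-1-/- mice, 4 of them with an unadjusted p under 0.05. Their sums overlapped between the genotypes. They were at 627, 874, 483 and 409 cpm in DJ-1+/+ replicates 1 to 4 and at 656 to 891 cpm in DJ-1-/- mice. The summed microglial markers stayed at 418 to 441 cpm in DJ-1+/+ and 425 to 454 cpm in DJ-1-/- mice. Xist was at 0 to 2 counts in 3 libraries, those of DJ-1-/- replicate 5 and of replicates 1 and 4 of the DJ-1+/+ group, and at 146 to 193 elsewhere. Since the tissue is bulk, fewer cells of a type and less RNA per cell cannot be told apart.

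None of the 10 genes passed edgeR's quasi-likelihood test between the genotypes, either at an unadjusted p under 0.05 (0 of 10, against 2.83% of all genes tested) or after Benjamini-Hochberg adjustment over all genes (0 of 10, against 0.00552%, which is Park7 alone). DESeq2 also gave 0 members with an unadjusted p under 0.05. The fitted log2 fold change of DJ-1-/- over DJ-1+/+ mice was above 0 for 7 members and below 0 for 3, against 51.9% of all genes above 0. The median over the members was 0.09, against 0.01 over all genes tested. A single member, Parp4, had cpm that did not overlap between the genotypes, with every DJ-1-/- mouse higher. Among all genes tested 0.662% separated in that direction and 1.25% in either direction.

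**Figure D1:**
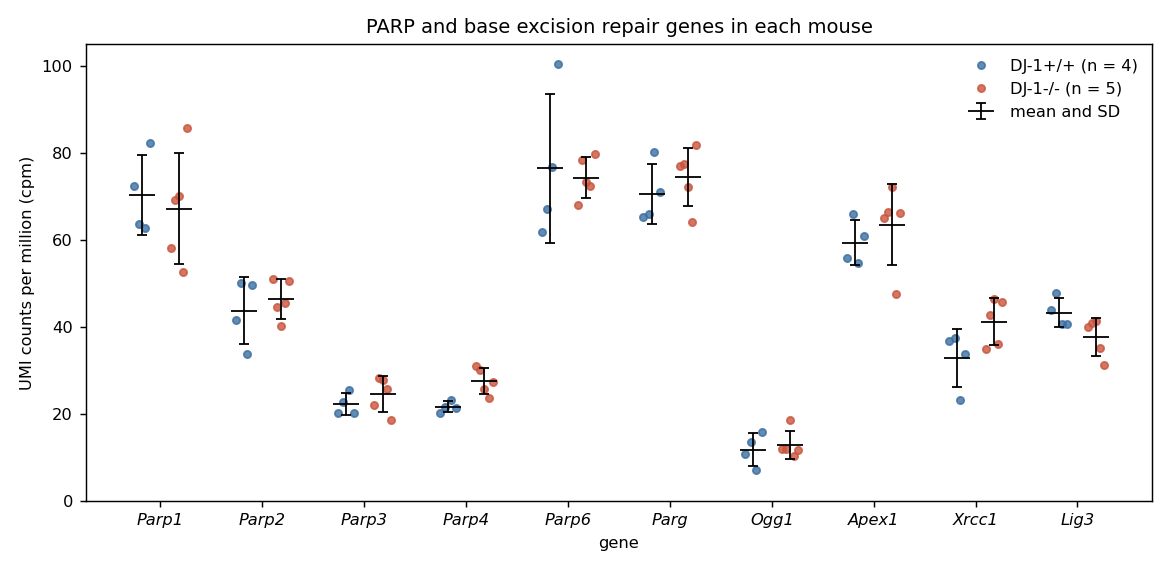
UMI counts per 1000000 (cpm, y axis) of each of the 10 genes (x axis) in every mouse, blue for the 4 DJ-1+/+ and red for the 5 DJ-1-/- mice, with black marks for the mean and SD. The genotypes overlap for 9 genes, and for Parp4 the DJ-1-/- mice lie at 23.8 to 31.0 cpm, above the DJ-1+/+ mice at 20.2 to 23.3 cpm.

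The promoters of 3 members are shown here because they stand for the ways in which these genes begin. Parp1 has no protein-coding start on the other strand nearby, while Parg and Apex1 start beside a gene that runs the other way. Each window runs from 250 bases before to 50 bases after the start given by RefSeq (GRCm38.p6), on the plus strand. The Parp1 window is chr1:180568641-180568940, that of Parg chr14:32201699-32201998 and that of Apex1 chr14:50924699-50924998. Capitals mark 3 motifs read on either strand, which do not overlap each other here. The GC box was searched as GGGCGG. The CCAAT box was searched by the letters of its name. The motif called the ETS core was searched as CCGGAAG.
Parp1: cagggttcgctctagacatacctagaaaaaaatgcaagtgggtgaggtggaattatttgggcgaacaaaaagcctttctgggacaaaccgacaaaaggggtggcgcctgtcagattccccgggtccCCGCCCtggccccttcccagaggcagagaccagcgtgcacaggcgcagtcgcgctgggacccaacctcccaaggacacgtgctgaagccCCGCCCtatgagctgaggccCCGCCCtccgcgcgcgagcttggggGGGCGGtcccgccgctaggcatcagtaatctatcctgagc
Parg: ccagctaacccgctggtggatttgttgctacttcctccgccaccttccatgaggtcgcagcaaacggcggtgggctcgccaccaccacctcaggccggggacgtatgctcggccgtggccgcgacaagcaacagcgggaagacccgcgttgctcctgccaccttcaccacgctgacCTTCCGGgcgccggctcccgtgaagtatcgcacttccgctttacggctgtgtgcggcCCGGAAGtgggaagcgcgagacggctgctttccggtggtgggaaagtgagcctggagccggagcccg
Apex1: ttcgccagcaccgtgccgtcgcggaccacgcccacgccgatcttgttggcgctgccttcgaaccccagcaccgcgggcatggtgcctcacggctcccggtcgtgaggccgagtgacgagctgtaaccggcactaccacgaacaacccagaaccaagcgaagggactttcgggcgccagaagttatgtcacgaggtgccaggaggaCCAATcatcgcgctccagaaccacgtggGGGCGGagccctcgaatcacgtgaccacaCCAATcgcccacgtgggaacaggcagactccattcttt
The Parp1 window held 4 GC boxes and neither other motif. That of Parg held 2 ETS cores and no GC box, and that of Apex1 held 1 GC box and 2 CCAAT boxes. RefSeq gave 11 windows for the 10 members, since Parg has 2 starts close together, and 7 of the 11 held a GC box, against 35.7% of all 32851 windows. A CCAAT box was in 5 of the 11 (37.4% of all windows) and an ETS core in 3 of the 11, those of Ogg1 and Parg (8.86%). A TATA box (TATAAA) was in none of the 11, against 13.6% of all windows. The windows held 7 to 33 CG dinucleotides, the fewest in Xrcc1 and the most in Parp6 and the second start of Parg, where the median window has 7. The RefSeq start of Xrcc1 lies 410 bases from the GENCODE M21 start, inside the gene, so this window does not hold the start from which the distance to its neighbour is counted. These matches describe the letters in the window and do not show that a factor binds there.

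The start of another protein-coding gene on the other strand lay within 1000 bases of the start of 6 of the 10 members, against 10.9% of the 21951 protein-coding genes of GENCODE M21 (GRCm38). The distance was 51 bases for Parg and Timm23, 75 for Apex1 and Osgep, 109 for Parp2 and Ccnb1ip1, 171 for Xrcc1 and Pinlyp, 194 for Parp4 and Cenpj and 986 for Parp3 and Rrp9, whose genes overlap at their starts. None of the 4 neighbours with counts had an unadjusted p under 0.05 in the edgeR fit. The log2 fold change was 0.08 for Cenpj (standard error 0.25), the neighbour of Parp4, -0.03 for Timm23, 0.09 for Osgep and 0.19 for Rrp9 (standard error 0.18). Ccnb1ip1 and Pinlyp had no count in any mouse. Parp2, Parp4, Parg and Apex1 all lie on chromosome 14.

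Of the strand break sensors, Parp1 is the founding member of the family and makes most of the poly(ADP-ribose) formed after DNA damage. It lies on chromosome 1 from 180568924 to 180601254 on the plus strand. It stood at 72.4, 63.6, 62.8 and 82.4 cpm in DJ-1+/+ replicates 1 to 4 and at 58.1, 69.2, 70.1, 52.7 and 85.8 cpm in DJ-1-/- replicates 1 to 5, from 51 to 88 counts per mouse. The lowest and the highest mouse were both DJ-1-/-, and the range of the DJ-1+/+ mice lay wholly inside that of the DJ-1-/- mice. The fold between genotypes was 0.957, with a 95% interval from 0.770 to 1.19 (unadjusted p = 0.672 in edgeR's test). Mice of the same genotype varied by 1.83 times the variance that counting alone gives, the widest of the members, where the median over 7826 genes of similar counts was 1.24. The sign of the difference turned without DJ-1+/+ replicate 4, where choroid plexus markers were highest, to a log2 fold change of 0.02, and without both DJ-1+/+ replicates 1 and 4 it was 0.09. The 3 mice with the highest Parp1 level, DJ-1-/- replicate 5 and DJ-1+/+ replicates 4 and 1, were also the 3 with Xist at 0 to 2 counts, and a fit with Xist as covariate gave a log2 fold change of 0.07. The same 3 mice also had the highest summed cerebellar markers. These were at 583 cpm in DJ-1-/- replicate 5, 599 and 1251 cpm in DJ-1+/+ replicates 4 and 1, and at most 527 cpm elsewhere. Choroid plexus markers were at 180 cpm in DJ-1-/- replicate 5, below the 182 cpm of DJ-1-/- replicate 2. The part of sex or of choroid plexus or cerebellar tissue in the Parp1 level was not tested.

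Parp2, the second enzyme activated by strand breaks, was at 41.6, 50.01, 33.7 and 49.7 cpm in the DJ-1+/+ mice and at 51.0, 44.6, 40.2, 45.5 and 50.7 cpm in the DJ-1-/- mice. Its lowest mouse was DJ-1+/+ replicate 3, and the other mice of both genotypes lay between 40.2 and 51.0 cpm. The log2 fold change was 0.08 (95% interval -0.25 to 0.42, unadjusted p = 0.6 in edgeR's test).

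Parp3, which attaches single ADP-ribose units and takes part in double-strand break repair, was at 20.2, 22.7, 25.6 and 20.3 cpm in DJ-1+/+ and 22.02, 28.2, 27.9, 25.8 and 18.5 cpm in DJ-1-/- mice. The single lowest value belonged to DJ-1-/- replicate 5, while 3 DJ-1-/- mice were above every DJ-1+/+ mouse. Its log2 fold change was 0.14 (95% interval -0.30 to 0.58, unadjusted p = 0.506 in edgeR's test).

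Parp4, the PARP of the vault particle, a large ribonucleoprotein of the cytoplasm, lies on chromosome 14 from 56575619 to 56659794 on the plus strand. In the DJ-1+/+ mice it had 17, 19, 20 and 19 counts, which are 20.2, 21.6, 23.3 and 21.4 cpm. In the DJ-1-/- mice it had 31, 33, 25, 23 and 28 counts, which are 31.0, 30.1, 25.8, 23.8 and 27.3 cpm. The lowest DJ-1-/- mouse, replicate 4, was just above the highest DJ-1+/+ mouse, replicate 3, so the genotypes were separate by a narrow margin. The mean was 21.6 ± 1.26 cpm (SD, 4 DJ-1+/+ mice) and 27.6 ± 2.99 cpm (SD, 5 DJ-1-/- mice), a log2 fold change of 0.35 with a 95% interval from -0.05 to 0.75 (unadjusted p = 0.0818 and adjusted p = 1 in edgeR's test). The mice of a genotype lay closer together than counting alone would place them, with a variance of 0.212 times the counting variance. At a mean count this low, counting error alone is 20.5% of the value. Under 19 other settings the log2 fold change of Parp4 stayed between 0.30 and 0.39, with an unadjusted p between 0.0651 and 0.24, so it was above 0 in all 19 and past the threshold of 0.05 in 0. Cenpj, which starts 194 bases from Parp4 on the other strand, was at 15.9 ± 3.04 cpm (SD, 4 DJ-1+/+ mice) and 16.8 ± 2.99 cpm (SD, 5 DJ-1-/- mice).

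Parp6, which adds single ADP-ribose units and has a part in the growth of hippocampal dendrites, was the most abundant member at 75.3 cpm over all mice. It stood at 61.8, 67.1, 76.8 and 100.4 cpm in DJ-1+/+ and at 68.1, 78.3, 73.2, 72.3 and 79.9 cpm in DJ-1-/- mice. DJ-1+/+ replicate 4 was above all other mice, and the 5 DJ-1-/- mice lay within the DJ-1+/+ range. The log2 fold change was -0.04 (95% interval -0.33 to 0.24, unadjusted p = 0.759 in edgeR's test), and 0.12 without DJ-1+/+ replicate 4. The summed choroid plexus markers were also highest in that library, and their part in the Parp6 level was not tested.

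**Figure D2:**
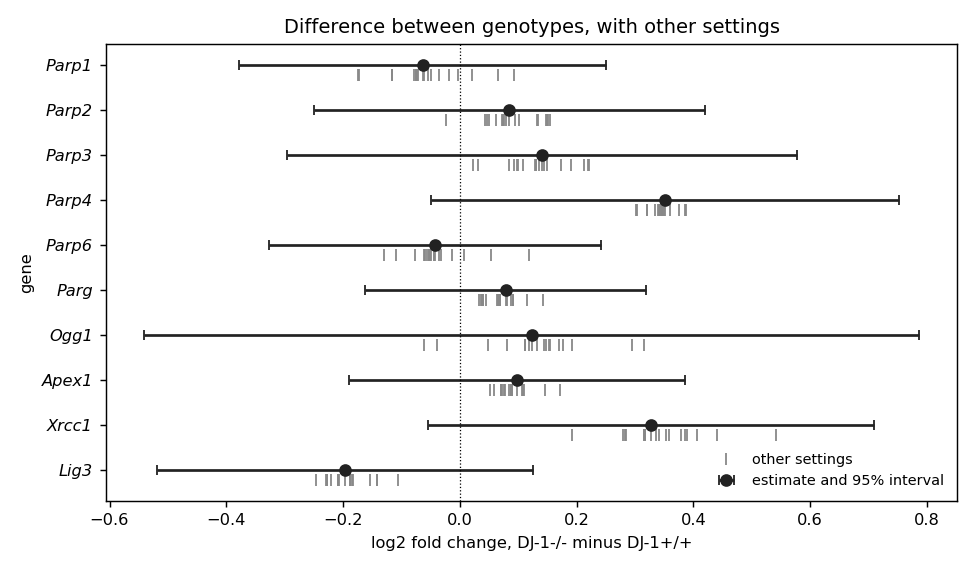
Log2 fold change of DJ-1-/- over DJ-1+/+ mice (x axis) for each of the 10 genes (y axis), with points for the estimate of edgeR, bars for its 95% interval and grey ticks for the 19 other settings. Every bar crosses 0, and all ticks lie above 0 for Parp3, Parp4, Parg, Apex1 and Xrcc1 and below 0 for Lig3.

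Parg, the glycohydrolase that cuts poly(ADP-ribose) chains, was the second most abundant member. It was at 65.3, 65.9, 80.3 and 71.1 cpm in DJ-1+/+ and 77.1, 77.4, 72.2, 64.1 and 81.9 cpm in DJ-1-/- mice. Both the lowest and the highest mouse were DJ-1-/-. With a log2 fold change of 0.08 (95% interval -0.16 to 0.32, unadjusted p = 0.497 in edgeR's test), Parg had the narrowest interval of the members. In a mouse, Parp1 transcripts per Parg transcript came to 1.004 ± 0.169 (SD, 4 DJ-1+/+ mice) and 0.898 ± 0.117 (SD, 5 DJ-1-/- mice), with ranges that overlapped.

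Ogg1, the glycosylase for oxidised guanine, was the least abundant member, with 6 to 18 counts per mouse. It was at 10.7, 13.6, 7.0 and 15.8 cpm in DJ-1+/+ and at 12.01, 11.8, 18.6, 10.3 and 11.7 cpm in DJ-1-/- mice. DJ-1-/- replicate 3 stood above the other DJ-1-/- mice, which lay between 10.3 and 12.01 cpm. The log2 fold change was 0.12 with the widest interval of the members, from -0.54 to 0.79 (unadjusted p = 0.7 in edgeR's test), and it was -0.06 without DJ-1+/+ replicate 3 and -0.04 without DJ-1-/- replicate 3. That interval holds folds from 0.688 to 1.72, and the counts do not tell apart changes within it.

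Apex1, the main endonuclease for sites without a base, was at 55.8, 65.9, 54.7 and 60.9 cpm in DJ-1+/+ and at 65.1, 66.5, 72.2, 47.5 and 66.3 cpm in DJ-1-/- mice. DJ-1-/- replicate 4 was the lowest of all mice, while 3 of the other DJ-1-/- mice were above every DJ-1+/+ mouse. The log2 fold change was 0.10 (95% interval -0.19 to 0.39, unadjusted p = 0.478 in edgeR's test).

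Xrcc1, the scaffold of single-strand break repair, lies on chromosome 7 from 24546289 to 24573440 on the plus strand. It was at 36.8, 37.5, 23.3 and 33.9 cpm in the DJ-1+/+ mice, with 31, 33, 20 and 30 counts. In the DJ-1-/- mice it was at 35.0, 42.8, 46.4, 36.2 and 45.8 cpm, with 35, 47, 45, 35 and 47 counts. DJ-1+/+ replicate 3 was the lowest of all mice and 3 DJ-1-/- mice were above every DJ-1+/+ mouse, while the other 2 lay among them. The mean was 32.9 ± 6.59 cpm (SD, 4 DJ-1+/+ mice) against 41.2 ± 5.35 cpm (SD, 5 DJ-1-/- mice), a log2 fold change of 0.33 with a 95% interval from -0.05 to 0.71 (unadjusted p = 0.0875 and adjusted p = 1 in edgeR's test). It was above 0 under all 19 other settings and was 0.19 without DJ-1+/+ replicate 3. With the log2 cpm of Xist as a covariate it was 0.41 (unadjusted p = 0.0469 in edgeR's test), and in 1 draw of counts thinned to 841974 per library it was 0.54 (unadjusted p = 0.0117 in edgeR's test). Over 20 further draws, added after that result was seen, the median was 0.35 and the range 0.28 to 0.43, all below that first draw. Of these 20, 3 had an unadjusted p under 0.05.

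Lig3, the ligase that XRCC1 carries to the break, lies on chromosome 11 from 82781108 to 82804274 on the plus strand. It was at 43.9, 47.7, 40.7 and 40.6 cpm in DJ-1+/+ and at 40.0, 41.0, 41.3, 35.1 and 31.2 cpm in DJ-1-/- mice. DJ-1+/+ replicates 1 and 2 were above all other mice and DJ-1-/- replicates 4 and 5 below all others, with the remaining 5 mice between 40.0 and 41.3 cpm. The log2 fold change was -0.20 (95% interval -0.52 to 0.12, unadjusted p = 0.213 in edgeR's test), and it was below 0 under all 19 other settings, between -0.25 and -0.11.

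The partners Xrcc1 and Lig3 thus had estimates on opposite sides of 0. Within a mouse there were 0.757 ± 0.126 Xrcc1 counts per Lig3 count (SD, n = 4, range 0.571 to 0.838) in DJ-1+/+ and 1.11 ± 0.221 (SD, n = 5, range 0.875 to 1.47) in DJ-1-/- mice. The ranges did not overlap. This ratio was picked out after its values were seen and is given with no test. Of the 45 ratios that the 10 members allow, 4 did not overlap between the genotypes. The other 3 all hold Parp4, which was separate on its own, and the share among all pairs of genes was not computed.

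At 3 members the counted 3′ end lies over an exon of a gene on the other strand. The last 500 bases of Apex1 are covered in full by exons of Pip4p1, and those of Lig3 by exons of Rffl. In Ogg1 the overlap with exons of Camk1 is 167 of the last 500 bases, which is all of the exon that Ogg1 has there. The strand setting of the counting is not given in the sources used here. Without it, how reads over exons of both genes were counted is not known. The other gene has its own annotated 3′ end outside these last 500 bases. Measured from the end of the member it lies at -1071 bases for Pip4p1, -944 for Camk1 and -1825 for Rffl. The part of such reads in the counts of the members was not tested. Pip4p1 was at 126 ± 5.57 cpm (SD, 4 DJ-1+/+ mice) and 112 ± 5.97 cpm (SD, 5 DJ-1-/- mice), a log2 fold change of -0.17 (unadjusted p = 0.0671 in edgeR's test), where that of Apex1 was 0.10. Rffl varied among mice of a genotype by 5.93 times the counting variance, from 20.5 to 66.1 cpm, while Lig3 varied by 0.399 times. Camk1 stood at 98.3 cpm over all mice, against 12.4 cpm for Ogg1, with a log2 fold change of -0.02.

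**Figure D3:**
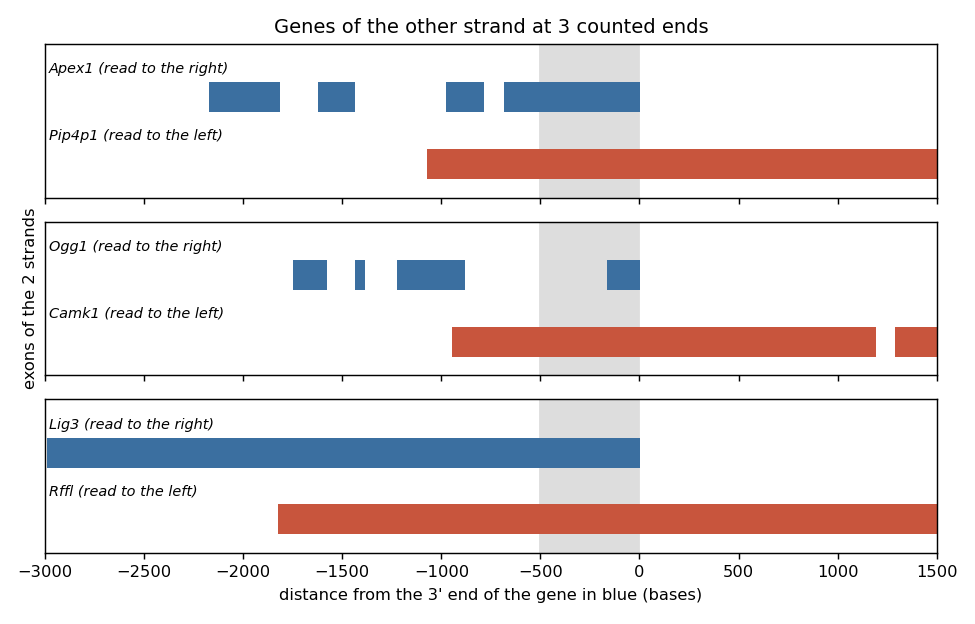
Exons of Apex1, Ogg1 and Lig3 (blue) and of the gene on the other strand (red), merged over all annotated transcripts, by distance in bases from the 3′ end of the blue gene (x axis), with the last 500 bases shaded. The red exons cover the whole shaded stretch in each panel, where the exon of Ogg1 is its last 167 bases.

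By their mean over all 9 mice, the members fell in the order Parp6 (75.3 cpm), Parg (72.8), Parp1 (68.6), Apex1 (61.7), Parp2 (45.2), Lig3 (40.2), Xrcc1 (37.5), Parp4 (24.9), Parp3 (23.5) and Ogg1 (12.4). Apex1 was above Parp2 and Parp3 was above Ogg1 in all 9 mice, and Xrcc1 was above Parp4 in 8 of 9. The other neighbours kept their order in 4 to 6 of 9 mice, so neighbours among Parp6, Parg, Parp1 and Apex1 were not separated beyond their spread, nor were those among Parp2, Lig3 and Xrcc1, or Parp4 and Parp3. Parp1 ranked above 66.6% of the genes tested and Parp2 above 55.8%. Within the PARP family, the tankyrases Tnks (136 cpm) and Tnks2 (116 cpm) were above Parp6 and Parp1, Tnks2 above Parp6 in all 9 mice. Parp1 made up 10.4 ± 0.898% (SD, 4 DJ-1+/+ mice) of all counts of the 16 family genes in DJ-1+/+ and 9.71 ± 1.87% (SD, 5 DJ-1-/- mice).

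Other genes of the pathway were taken from 5 lists, 48 genes in all, of which 47 could be tested. Among these, 24 had a log2 fold change above 0 and 23 below, and edgeR gave 1 of them an unadjusted p under 0.05, against 2.83% of all genes tested. No gene of the lists had an adjusted p under 0.05. The untested gene was Neil3, a glycosylase of dividing cells, with 3 counts over all mice.

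Of the 11 other PARP genes, 8 had an estimate above 0 and 3 below, and 0 had an unadjusted p under 0.05. Their median log2 fold change was 0.16. The estimates ran from -0.09 for Tnks (standard error 0.08), which modifies telomere and Wnt pathway proteins, to 0.50 for Parp9 (standard error 0.38), an interferon-induced gene. Over all 16 PARP genes, members included, 11 were above 0 and 5 below, with a median of 0.14.

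HPF1, the cofactor that turns PARP1 and PARP2 towards serine residues, was counted with 6 genes for the removal of ADP-ribose. Of these 7 genes, 2 had an estimate above 0 and 5 below, and 0 an unadjusted p under 0.05. Hpf1, named after its value was seen, was at 111 ± 3.94 cpm (SD, 4 DJ-1+/+ mice) and 96.5 ± 11.7 cpm (SD, 5 DJ-1-/- mice), a log2 fold change of -0.20 (unadjusted p = 0.0521 in edgeR's test). It was below 0 under all 19 other settings, with an unadjusted p under 0.05 in 6 of them. Over the 7 genes the estimates ran from -0.24 for Nudt5, a hydrolase of free ADP-ribose, to 0.34 for Macrod1, which removes single ADP-ribose units. Adprh had the highest level at 129 cpm.

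Among the 9 other DNA glycosylases tested, 5 were above 0 and 4 below, from -0.53 for Tdg to 0.45 for Neil1, which like Ogg1 acts on oxidised bases. None had an unadjusted p under 0.05, and the most abundant was Mpg, the glycosylase for alkylated bases, at 68.0 cpm. The 12 genes for end processing, gap filling and ligation had 5 estimates above 0 and 7 below, with none past an unadjusted p of 0.05. The lowest estimate was -0.72 for Apex2 (standard error 0.35, unadjusted p = 0.0533 in edgeR's test), the minor relative of Apex1. It was below 0 under all 18 other settings that tested Apex2, with an unadjusted p under 0.05 in 4 of them. Polb, the polymerase that fills the gap, was the most abundant of the 12 genes at 111 cpm.

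The 8 genes of NAD supply, which feeds the PARP reaction, had 4 estimates above 0 and 4 below. Nmrk1, a kinase that makes NAD from nicotinamide riboside, was the gene past an unadjusted p of 0.05. It was at 21.4 to 29.1 cpm in DJ-1+/+ and 29.9 to 39.0 cpm in DJ-1-/- mice, without overlap but by a narrow margin. Nmrk1 was the 1 gene of the 47 tested in the lists to separate, against 0.662% of all genes tested in that direction. Its log2 fold change was 0.41 (standard error 0.18, unadjusted p = 0.0381 and adjusted p = 1 in edgeR's test), and its unadjusted p stayed under 0.05 in 9 of 19 other settings. The other genes of this list ran from -0.63 for Nmnat3, which makes NAD in mitochondria, to 0.64 for Naprt, and Nmnat2, the axonal enzyme, had the highest level at 159 cpm.

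**Figure D4:**
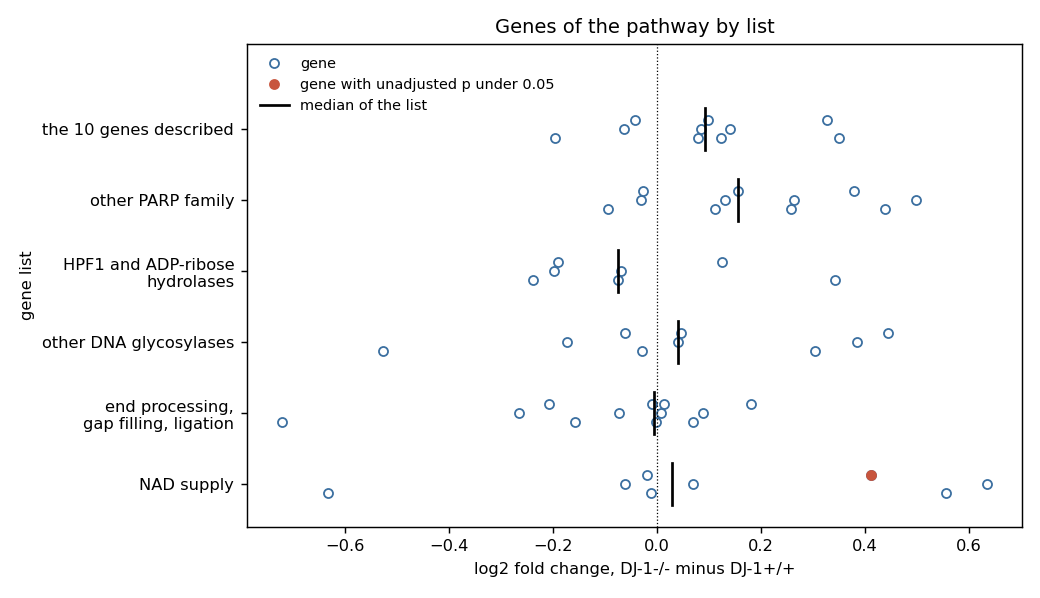
Log2 fold change of DJ-1-/- over DJ-1+/+ mice (x axis) of each tested gene, by list (y axis), with a black line at the median of the list. Nmrk1 in the NAD supply list, filled in red, is the single gene with an unadjusted p under 0.05, and the medians lie between -0.08 and 0.16.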

How the data were processed

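Mid brain RNA (SNpc included) was sequenced in 4 DJ-1+/+ and 5 DJ-1-/- mice. The authors deposited, for each mouse, whole-number UMI counts per Ensembl gene, without normalization and listing only genes with a count. Libraries were QuantSeq 3′ FWD libraries from 100 ng of total RNA. The submitters' processing notes name fastp 0.20.0, STAR 2.7.3a, Subread, featureCounts 2.0.0, UMI-tools 1.0.0 and GRCm38. The strand setting and the annotation release are not given in the sources used here.

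Counts were joined by Ensembl identifier, with 0 for a gene not listed, and symbols came from GENCODE M21. Genes with at least 10 counts were tested with edgeR 4.0.16 (TMM, glmQLFit, glmQLFTest, R 4.3.3), genotype being the only term, with Benjamini-Hochberg adjustment over 18127 genes. Standard errors and 95% intervals are those implied by the p of edgeR's test. The variance among mice was divided by the Poisson variance of the counts. At these depths 3 counts equal 2.73 to 3.56 cpm, which covers counting error only. The alternatives were RLE size factors, library totals, no filter, filterByExpr, DESeq2 1.42.0, 1 draw of thinned counts and the median of 20 further draws. The others were log2 cpm of Xist as covariate, a block by replicate number, each library left out, and DJ-1+/+ replicates 1 and 4 left out. On simulated data 174 of 200 genes changed by a log2 of 1 were recovered, with 13 of 17764 genes called wrongly. The changed genes were drawn from those with a mean count above that of Ogg1. Smaller changes, such as the estimates of the members, were not simulated.

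Named genes are the members, Park7, in each list the extremes of fold change, the highest level and any gene with an unadjusted p under 0.05 or without overlap, and neighbours within 20 kb. One value that this rule names is not reported here. The members and lists were chosen with earlier results of these data known.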

Additional observations from a re-analysis of the deposited data

Results flagged for a closer look

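In 2 of 38 groups of values examined (the 10 members, Park7 and 8 sums of cell type markers, in each genotype), 1 mouse lay apart from the rest by a gap that chance gives in about 1 of 20 such groups. Apex1 was at 47.5 cpm in DJ-1-/- replicate 4, below the other DJ-1-/- mice at 65.1 to 72.2 cpm, a gap of 0.71 of the whole range. Ogg1 was at 18.6 cpm in DJ-1-/- replicate 3, above the other DJ-1-/- mice at 10.3 to 12.01 cpm, a gap of 0.796 of the range.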

How the results depend on the processing

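Over the 19 alternatives the count of members with an adjusted p under 0.05 stayed at 0. That with an unadjusted p under 0.05 was 1 with 1 draw of thinned counts and 1 with the Xist covariate, in both cases Xrcc1. By the median of 20 further draws it was 0. Of the pathway genes outside the members, where 1 passed, 3 did so with RLE size factors, 0 with every gene that had a count, 2 with filterByExpr, 0 with DESeq2, 0 with the Xist covariate, 3 without both DJ-1+/+ replicates 1 and 4, and 0 to 2 when single libraries were dropped. The cause was not tested. Estimates near 0 changed sign. For Parp1 the log2 fold change was 0.066 with the Xist covariate, 0.092 without DJ-1+/+ replicates 1 and 4, and -0.17 to 0.021 with each library left out. For Parp6 it was 0.0079 with the Xist covariate, 0.053 without DJ-1+/+ replicates 1 and 4, and -0.13 to 0.12 with each library left out. With each library left out it was -0.023 to 0.15 for Parp2 and -0.062 to 0.30 for Ogg1. The other single-gene values counted here are those of the members, of the extremes of fold change in each list and of Nmrk1, not of Hpf1. Of these values, 366 kept their direction and their side of the threshold, 9 moved under an unadjusted p of 0.05 and 10, all for Nmrk1, moved above it. The labels do not say whether the replicate numbers mark paired mice. For replicates 1 to 4, deviations of same-numbered mice from their genotype means correlated at 0.29, 0.06, -0.12 and -0.20. Only for DJ-1+/+ replicate 1 was the best partner its own number. Such correlations cannot show whether mice were paired by litter or cage. With the replicate block, 0 members had an unadjusted p under 0.05 and the estimate for Parp1 was -0.17, and the count of all genes with an adjusted p under 0.05 was 8 in place of 1. It was 36 when every gene with a count was tested. Members had 6 to 89 counts per mouse, so counting error alone was 11.8% to 29.1% of a value, and every DJ-1-/- library was deeper.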
